A study of Mus musculus with 10 samples.

Results

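Spondins, thrombospondins and further matricellular genes were followed in tibialis anterior (TA) muscle of mice during cardiotoxin (CTX)-induced regeneration. The set held 10 members of 25700 genes listed in each mouse: the spondins Spon1 and Spon2, the thrombospondins Thbs1, Thbs2, Thbs3 and Thbs4, and Tnc, Postn, Sparc and Sparcl1. The members were chosen by gene family around Spon2, and Spon2 was selected on the contrast between the genotypes, where it had the smallest unadjusted p of all genes. The genotype contrast is therefore given for the members as a description: the p of Spon2 and the counts of members called are printed beside those of all genes, and no test result is read from them. The order of levels over all mice was not the measure used in that choice. The variation of Spon2 over all 10 mice includes the difference between the genotypes on which it was selected, so its variation is also given within genotypes.

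The 5 mice labelled wild type, named Pax7Cre, were compared with 5 mice labelled miR-501 -/-, named miR-501KO. All 10 were C57BL/6 males aged 12 weeks, received CTX, a snake venom toxin that destroys muscle fibers, into the TA muscle, and were examined on day 6. Both groups carried Pax7 Cre, and the miR-501KO mice carried in addition a floxed miR-501 allele on their single X chromosome (miR-501fl/Y). Pax7 drives Cre in the myogenic lineage, that is in satellite cells and in fibers formed from them, whereas fibroblasts, macrophages and vessel cells in the same muscle are not of that lineage. miR-501 itself was not listed in the gene counts, and its loss was not checked here. RNA came from whole muscle and was read as polyadenylated RNA, with a total of 18609222 to 24753258 counts per mouse.

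Matricellular proteins are secreted into the extracellular matrix, where they bind collagens, growth factors and cell surface receptors and change how cells attach, move and signal, rather than bear load as collagen does. Most are low in resting adult muscle and appear after injury, when fibroblasts, macrophages and regenerating fibers lay down a provisional matrix around satellite cells. Thrombospondins and spondins share the thrombospondin type 1 repeat in some of their members, tenascin-C and periostin bridge collagen, fibronectin and integrins, and SPARC binds collagen and steers its assembly.

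miR-501 lies in an intron of the chloride channel gene Clcn5 on the X chromosome. The mature miRNAs are shown because a miRNA pairs with its targets mainly through its seed, bases 2 to 8, given in capitals. The sequences were from RefSeq (GRCm38.p6), and miR-500-3p is a neighbor on the X chromosome with the same seed as miR-501-3p.
mmu-miR-501-3p: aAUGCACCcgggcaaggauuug
mmu-miR-500-3p: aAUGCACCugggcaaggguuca
mmu-miR-501-5p: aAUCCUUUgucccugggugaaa
The DNA letters that pair with bases 2 to 8 of miR-501-3p are GGTGCAT, and those that pair with bases 2 to 7 are GTGCAT, which are contained in the longer match. The annotated 3′ UTRs (GENCODE M21, GRCm38, sense strand only) of the members were searched for both. GGTGCAT was found in 0 of 10 members, against 8.24% of 14074 tested genes with an annotated 3′ UTR. GTGCAT was found in 3 of 10 members, against 33.8% of those genes. The 3′ UTRs of the members were shorter, with a median of 693 bases for the longest annotated one of each gene against 1346 bases over all these genes. The 3 matches are given with 12 bases on either side and GTGCAT in capitals, 5′ to 3′ on the strand of the gene, with the position of the capitals.
Spon1, chr7:113930124-113930129, plus strand: ttcagaaaatgtGTGCATgctgtgacctta
Tnc, chr4:64012853-64012858, minus strand: ctgggatcacttGTGCATctttgtgaactg
Sparcl1, chr5:104079269-104079274, minus strand: caatgtcactctGTGCATctgcgtttataa
The match lay in 1 of 2 annotated transcripts with a 3′ UTR for Spon1, in 1 of 4 for Tnc and in the only one for Sparcl1. For Tnc this was Tnc-202, with a 3′ UTR of 304 bases, and not Tnc-204, which has the longest one (648 bases). The 3′ UTR of Spon2, 541 bases long, held neither string of letters. A match of letters is a description and not a binding site.

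Members differed widely in abundance (the plot of levels per length). Levels were compared between genes as counts scaled to library size (CPM) divided by the kilobases of all annotated exons of the gene. Sparc, a collagen-binding protein, was highest with 1039 ± 121 CPM per kilobase (SD, n = 10), followed by Postn, which aids collagen fibril formation, with 620 ± 98.5. Thbs4, a pentameric thrombospondin of muscle and tendon, was next with 252 ± 26.5 CPM per kilobase. Sparcl1, a close relative of Sparc, had 122 ± 18.1 and Tnc, the tenascin of wounds and developing tendon, had 94.6 ± 31.6 CPM per kilobase. These 5 genes thus stood above the remaining thrombospondins and the spondins. The trimeric thrombospondins Thbs2 and Thbs1, which bind CD36 and CD47, had 44.8 ± 8.29 and 32.2 ± 11.0 CPM per kilobase. Thbs3, a pentameric thrombospondin, had 18.9 ± 2.04. The spondins were lowest, with 3.54 ± 0.850 CPM per kilobase for Spon2 and 3.31 ± 0.418 for Spon1. The means of the highest and the lowest member were 314-fold apart.

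**Figure D1:**
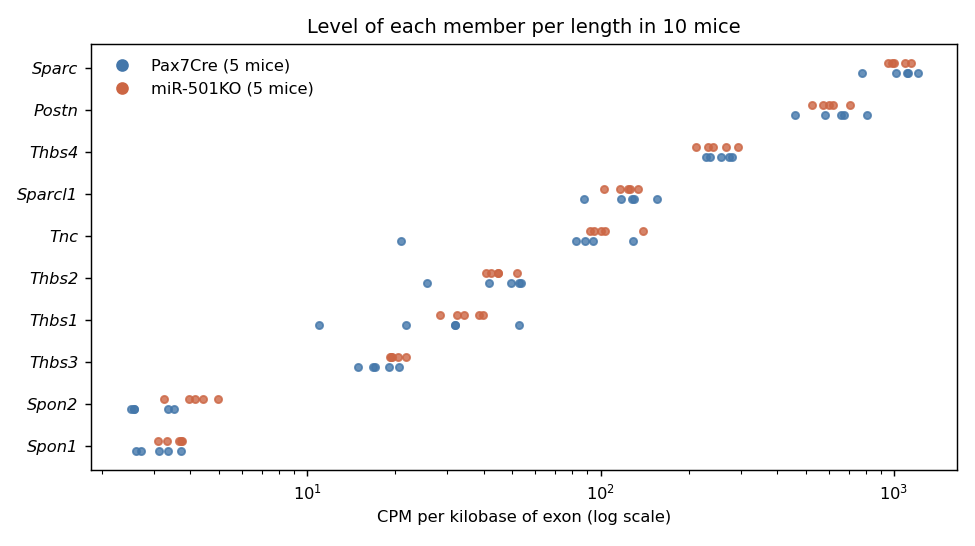
Level of each member as CPM per kilobase of annotated exon on a log axis, with 1 point for each of 5 Pax7Cre and 5 miR-501KO mice. Sparc and Postn lie highest, the spondins lie lowest near 3 CPM per kilobase, and 1 Pax7Cre mouse lies far below the others in Tnc and Thbs1.

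Of the 9 neighboring pairs in this order, 7 differed within mice (exact two-sided sign-flip permutation test on log2 levels, adjusted over the 9 pairs). The adjusted p was 0.00352 for Sparc over Postn, Postn over Thbs4, Thbs4 over Sparcl1, Thbs2 over Thbs1 and Thbs3 over Spon2, with the same direction in 10 of 10 mice, and the unadjusted p of 0.00195 is the smallest that 10 mice allow. Tnc over Thbs2 (mean log2 difference 0.98, SD 0.49, 9 of 10 mice, exact permutation test, adjusted p = 0.00586) and Thbs1 over Thbs3 (0.68, SD 0.67, 9 of 10 mice, adjusted p = 0.0226) also passed. The largest step was from Thbs3 down to Spon2, a mean log2 difference of 2.44 with an SD of 0.28. Sparcl1 and Tnc did not differ beyond their spread (log2 difference 0.48, SD 0.92, 8 of 10 mice, exact permutation test, adjusted p = 0.0747), nor did Spon2 and Spon1 (0.071, SD 0.34, 6 of 10 mice, adjusted p = 0.510). With the longest transcript of each gene as its length, the spondins changed places, again without a difference, and Thbs1 over Thbs3 no longer passed (0.48, SD 0.67, exact permutation test, adjusted p = 0.0703). Reads per gene without regard to length placed Postn at rank 17, Sparc at rank 26, Thbs4 at rank 103 and Tnc at rank 120 of the 14410 genes that passed the filter on low counts, while Spon1 was at rank 5214 and Spon2 at rank 9861. All 10 members passed that filter.

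The 10 libraries differed in the levels of cell type markers. Pax7Cre mouse 2 stood apart on the first principal component, which held 31.7% of the variance, at 45.6 against -27.9 to 17.5 in the other 9 mice. Pax7Cre mouse 3 stood apart on the second component, which held 17.7%, at -37.9 against -3.77 to 14.9 in the others. The share of mitochondrial counts in Pax7Cre mouse 2 was the highest, 14.0%, and that of Pax7Cre mouse 4 the lowest, 6.59%, with 9.65 to 12.7% in the other 8. The summed level of 6 mature fiber markers (Ckm, Myh4, Myh1, Actn3, Pvalb and Atp2a1) was 41320 CPM in Pax7Cre mouse 2, 15399 CPM in Pax7Cre mouse 4 and 19042 to 31716 CPM in the other 8. The summed fibroblast markers (6 genes, among them Pdgfra and Dcn) were also highest in Pax7Cre mouse 2, with 2149 CPM, and lowest in Pax7Cre mouse 4, with 1185 CPM. Pax7Cre mouse 2 was highest too in the endothelial and Schwann cell sums, with 835 and 31.3 CPM. It was the lowest of all mice in the sums for regenerating fibers (2211 CPM), macrophages (3864 CPM), tenocytes (146 CPM) and smooth muscle and pericytes (1043 CPM). Its satellite cell sum was 81.2 CPM, against 80.4 to 121 CPM in the others. The 10 members together took 0.768% of all counts in Pax7Cre mouse 2 and 1.04 to 1.45% in the other mice. All 46 markers of 9 cell type lists were above 0 and passed the filter, which shows RNA of skeletal muscle fibers and of other cell types, while these markers do not tell TA from another muscle. In 5 Pax7Cre and 5 miR-501KO mice, the fiber marker sums ranged from 15399 to 41320 CPM and from 22998 to 31716 CPM, and 5 of 6 markers had a log2 fold change above 0. The fibroblast marker sums ranged from 1185 to 2149 CPM and from 1457 to 1700 CPM, with 0 of 6 markers above 0 and a median log2 fold change of -0.092. Of the 46 markers, 0 reached an unadjusted p of 0.05 between the genotypes (edgeR quasi-likelihood test), against 1.05% of all 14410 genes tested. Whether these differences in makeup or in mitochondrial share had a part in the values of the members was not tested.

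**Figure D2:**
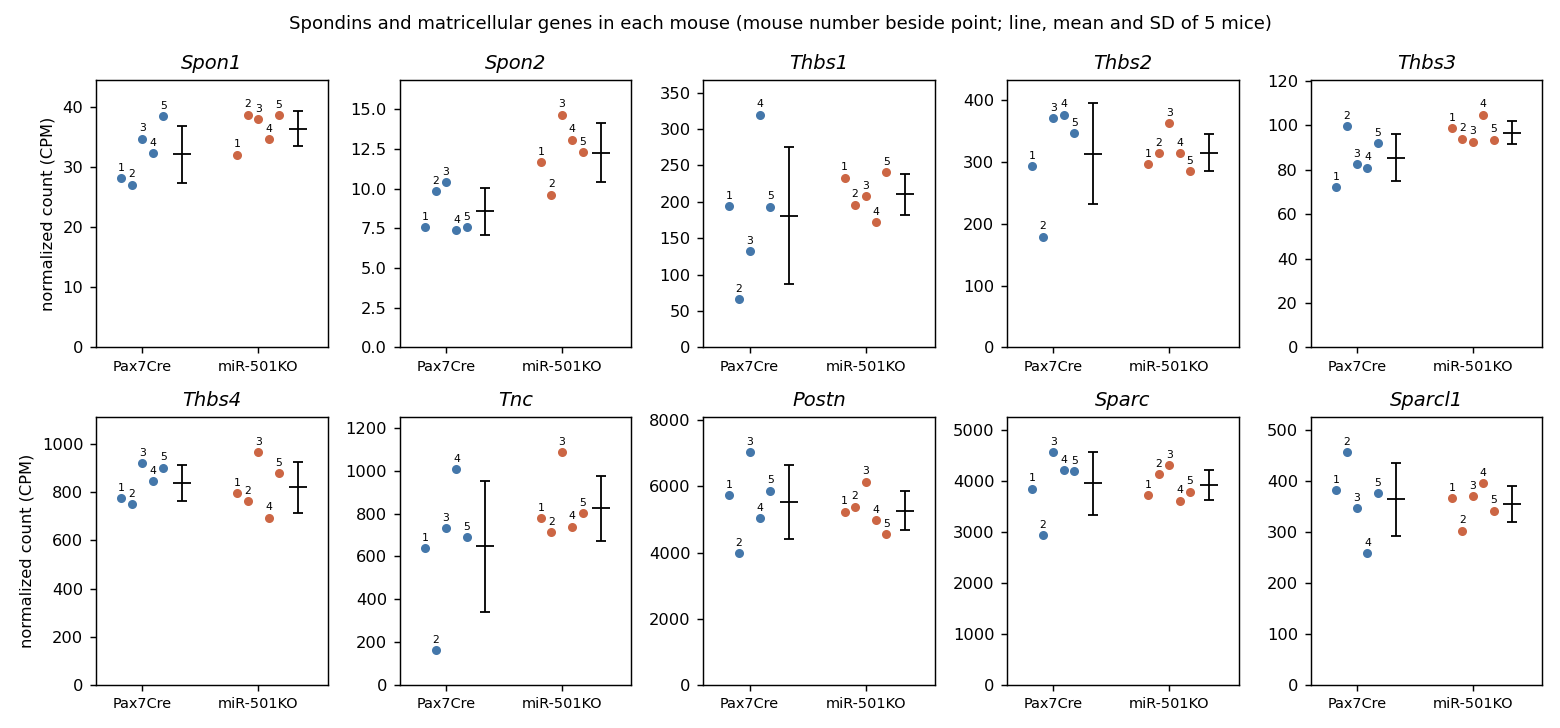
Normalized count (CPM, linear axes starting at 0) of each member in 5 Pax7Cre mice (blue) and 5 miR-501KO mice (orange), with the mouse number beside each point and the mean and SD of each group in black. Spon2 is above all Pax7Cre mice in 4 of 5 miR-501KO mice, and the groups overlap in every member.

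Spon2, or mindin, is a secreted spondin that binds bacterial lipopolysaccharide and integrins of macrophages and neutrophils. The gene (ENSMUSG00000037379) lies at chr5:33198184-33218455 on the minus strand. Its level in Pax7Cre mice 1 to 5 was 7.57, 9.87, 10.4, 7.38 and 7.59 CPM, and in miR-501KO mice 1 to 5 it was 11.7, 9.63, 14.7, 13.1 and 12.3 CPM. Only miR-501KO mouse 2 fell into the Pax7Cre range, and the other 4 miR-501KO mice lay above all Pax7Cre mice. The means were 8.56 ± 1.45 and 12.3 ± 1.85 CPM (SD, n = 5 each), which is 1.44-fold or 0.52 on the log2 scale (SE 0.14). This was the contrast that selected Spon2: its unadjusted p of 0.00211 was the smallest of 14410 genes in edgeR's quasi-likelihood test, just ahead of Cd300ld3 with 0.00220 and Fgf7 with 0.00227, both of which were lower in miR-501KO. In bulk muscle, a difference in the number of cells that make a transcript and in the transcript per cell cannot be told apart. Spon2 was read with 155 to 352 counts per mouse, for which counting alone gives a relative error of 8.03 to 5.33%.

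None of the 14410 genes passed an adjusted p of 0.05 in edgeR's quasi-likelihood test, a share of 0%, so that 0 of 10 members passed. At an unadjusted p under 0.05, 151 genes or 1.05% were called, 55 (0.382%) higher and 96 (0.666%) lower in miR-501KO, and 1 of 10 members, Spon2, was among the higher ones. These unadjusted counts, also used above and below as background, changed when single mice were left out, to 267 higher and 186 lower without Pax7Cre mouse 2 and to 228 and 242 without Pax7Cre mouse 4. After adjustment, DESeq2's Wald test called 0 genes and edgeR's likelihood ratio test with trended dispersion called 19 (11 higher, 8 lower), without Spon2. Groups did not overlap in 20 genes or 0.139% of those tested and in 0 of 10 members. Nothing is read from these counts for the members, since Spon2 was selected on this contrast. Of the members, 6 had a log2 fold change above 0 and 4 below 0, with a median of 0.093 over the members and -0.0042 over all genes tested, 47.9% of which were above 0.

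Spon1, or F-spondin, is an extracellular matrix protein known from axon guidance in the floor plate, and it binds lipoprotein receptors. It lies at chr7:113765998-114043370 on the plus strand (ENSMUSG00000038156). Spon1 had 28.2, 27.1, 34.8, 32.4 and 38.6 CPM in Pax7Cre mice 1 to 5 and 32.1, 38.8, 38.1, 34.7 and 38.7 CPM in miR-501KO mice 1 to 5. The ranges overlapped, with 2 Pax7Cre mice below all miR-501KO mice and 2 miR-501KO mice just above all Pax7Cre mice. The means were 32.2 ± 4.74 and 36.5 ± 2.95 CPM (SD, n = 5 each), and the log2 fold change was 0.18 (SE 0.10), and it was 0.12 to 0.25 with 1 mouse left out.

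Thbs1 activates latent TGF-beta and restrains vessel growth through CD36 and CD47 (ENSMUSG00000040152, chr2:118111876-118127133, plus strand). It had 194, 66.5, 132, 320 and 193 CPM in Pax7Cre mice 1 to 5 and 233, 196, 208, 173 and 241 CPM in miR-501KO mice 1 to 5. All 5 miR-501KO mice lay inside the Pax7Cre range, which was set by mouse 2 at the bottom and mouse 4 at the top. The means were 181 ± 93.6 and 210 ± 27.7 CPM (SD, n = 5 each), and the log2 fold change was 0.21 (SE 0.30). This value rested on those mice: it was 0.00062 without Pax7Cre mouse 2 and 0.52 without Pax7Cre mouse 4.

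Thbs2, the other trimeric thrombospondin, also limits vessel growth and shapes collagen fibrils (ENSMUSG00000023885, chr17:14665500-14694235, minus strand). Its levels were 293, 179, 370, 376 and 347 CPM in Pax7Cre mice 1 to 5 and 296, 314, 363, 314 and 285 CPM in miR-501KO mice 1 to 5. Pax7Cre mouse 2 was again lowest, and the miR-501KO values fell inside the Pax7Cre range. The means were 313 ± 81.8 and 315 ± 29.7 CPM (SD, n = 5 each), and the log2 fold change was 0.0065 (SE 0.17). It was -0.14 without Pax7Cre mouse 2 and 0.081 without Pax7Cre mouse 4.

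Thbs3 belongs to the pentameric thrombospondins, which lack the type 1 repeat (ENSMUSG00000028047, chr3:89215180-89226837, plus strand). Thbs3 had 72.1, 99.5, 82.3, 80.8 and 91.7 CPM in Pax7Cre mice 1 to 5 and 98.5, 93.9, 92.6, 105 and 93.5 CPM in miR-501KO mice 1 to 5. In Thbs3, 4 Pax7Cre mice lay below all miR-501KO mice, while Pax7Cre mouse 2 was higher than 4 of the 5. The means were 85.3 ± 10.5 and 96.6 ± 5.05 CPM (SD, n = 5 each), and the log2 fold change was 0.18 (SE 0.088), and it was 0.13 to 0.24 with 1 mouse left out. Exons of Thbs3 overlap those of Mtx1 on the opposite strand, itself read with 328 to 597 counts per mouse. The kit keeps strand, but the strand setting of the counting was not given in the sources used here, so part of the reads in this overlap may be uncertain.

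Thbs4, another pentameric thrombospondin, sits in the matrix of tendon and muscle and supports attachment of fibers (ENSMUSG00000021702, chr13:92751590-92794818, minus strand). Its values were 775, 751, 920, 848 and 903 CPM in Pax7Cre mice 1 to 5 and 797, 763, 968, 695 and 881 CPM in miR-501KO mice 1 to 5. The Pax7Cre values, 751 to 920 CPM, lay within the wider miR-501KO range of 695 to 968 CPM. The means were 839 ± 75.3 and 821 ± 106 CPM (SD, n = 5 each), and the log2 fold change was -0.032 (SE 0.11). It was -0.098 without miR-501KO mouse 3 and 0.022 without miR-501KO mouse 4.

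Tnc is transiently made in injured muscle and is a component of the satellite cell niche (ENSMUSG00000028364, chr4:63959785-64047015, minus strand). It had 640, 163, 732, 1006 and 690 CPM in Pax7Cre mice 1 to 5 and 777, 714, 1087, 739 and 803 CPM in miR-501KO mice 1 to 5. In all, 3 Pax7Cre mice were below all miR-501KO mice, mouse 2 by far, and Pax7Cre mouse 4 was above 4 of the 5. The means were 646 ± 305 and 824 ± 151 CPM (SD, n = 5 each), and the log2 fold change was 0.35 (SE 0.34). Without Pax7Cre mouse 2 it was 0.10 and without Pax7Cre mouse 4 it was 0.57.

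Postn (ENSMUSG00000027750, chr3:54361109-54391037, plus strand) was the member with the most reads. Postn had 5742, 3986, 7040, 5048 and 5869 CPM in Pax7Cre mice 1 to 5 and 5237, 5390, 6145, 4973 and 4563 CPM in miR-501KO mice 1 to 5. All miR-501KO mice lay between Pax7Cre mouse 2 and Pax7Cre mouse 3. The means were 5537 ± 1124 and 5262 ± 585 CPM (SD, n = 5 each), and the log2 fold change was -0.074 (SE 0.17). With 1 mouse left out at a time it was -0.17 (without Pax7Cre mouse 2) to 0.028 (without Pax7Cre mouse 3).

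Sparc (ENSMUSG00000018593, chr11:55394500-55423183, minus strand) had 3853, 2946, 4573, 4211 and 4192 CPM in Pax7Cre mice 1 to 5 and 3722, 4134, 4322, 3617 and 3797 CPM in miR-501KO mice 1 to 5. The miR-501KO values were again enclosed by Pax7Cre mice 2 and 3. The means were 3955 ± 619 and 3919 ± 297 CPM (SD, n = 5 each), and the log2 fold change was -0.013 (SE 0.14). Leaving out 1 mouse moved it between -0.10 (without Pax7Cre mouse 2) and 0.045 (without Pax7Cre mouse 3), and in 5 of 10 cases it was above 0. Sparcl1, or hevin, which opposes adhesion and is made by vessel wall and glial cells (ENSMUSG00000029309, chr5:104079111-104113733, minus strand), had 382, 456, 346, 259 and 376 CPM in Pax7Cre mice 1 to 5 and 365, 302, 371, 395 and 341 CPM in miR-501KO mice 1 to 5. Here Pax7Cre mouse 2 was the highest and Pax7Cre mouse 4 the lowest of all mice. The means were 364 ± 71.4 and 355 ± 35.0 CPM (SD, n = 5 each), and the log2 fold change was -0.036 (SE 0.14). It was 0.057 without Pax7Cre mouse 2 and -0.14 without Pax7Cre mouse 4.

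The spread among mice was very unequal. The ratio of the highest to the lowest mouse was 6.67 for Tnc and 4.81 for Thbs1, against 2.10 for Thbs2, 1.99 for Spon2 and 1.43 for Spon1. Without Pax7Cre mouse 2 it was 1.70 for Tnc and 2.42 for Thbs1. The coefficient of variation over 10 mice was 34.2% for Thbs1 and 33.4% for Tnc, higher than that of 96.0 and 95.8% of the 13577 genes with a mean of at least 1 CPM, whose median was 12.1%. Thbs2 had 18.5%. These values also rested on Pax7Cre mouse 2, without which they were 24.8% for Thbs1, 18.7% for Tnc and 10.8% for Thbs2. Spon2 had 24.0% over 10 mice, which includes the difference that selected it, and 17.0% among Pax7Cre and 15.1% among miR-501KO mice. The last of these was 9.95% without miR-501KO mouse 2. By contrast, Thbs3, Thbs4 and Sparc had 10.8, 10.5 and 11.6% over 10 mice, below that median. In Thbs1 the coefficient was 51.7% among Pax7Cre and 13.2% among miR-501KO mice, and in Tnc it was 47.2 and 18.3%, a difference in spread that was not tested. Without Pax7Cre mouse 2 the coefficient among Pax7Cre mice was 37.5% for Thbs1 and 21.4% for Tnc. Without miR-501KO mouse 3 that of Tnc among miR-501KO mice was 5.20%. Pax7Cre mouse 2 was the lowest of all 10 mice in Spon1, Thbs1, Thbs2, Tnc, Postn and Sparc and the highest in Sparcl1. Its mature fiber markers were the highest and its regenerating fiber markers the lowest, with its other marker sums given above.

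**Figure D3:**
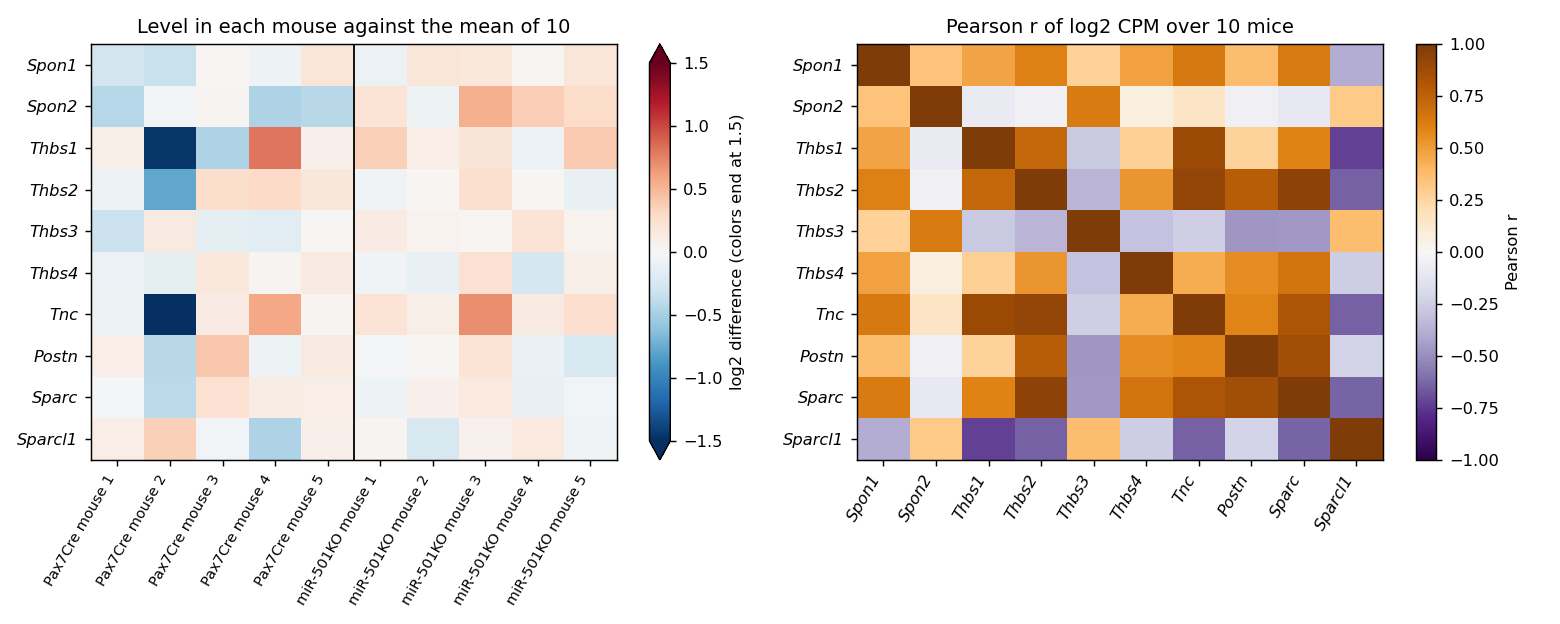
Left, log2 CPM of each member in each mouse minus the mean of the 10 mice, with blue below and red above that mean and the darkest blue reaching beyond the end of the scale in Tnc. Right, Pearson r of log2 CPM over 10 mice for each pair of members; Thbs2, Tnc, Postn and Sparc have positive r with each other, which for Tnc and Postn turns to -0.085 without Pax7Cre mouse 2, and the r of Spon2 includes the difference between the genotypes.

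Covariation was measured for all 45 pairs of members by Pearson's r and Spearman's rho of log2 CPM over 10 mice (permutation test with 100000 resamples, adjusted over the pairs). Of these, 28 had an r above 0, and 2 passed by r while 0 passed by rho. Thbs2 and Sparc had an r of 0.94 (permutation test, p = 4.8e-04, adjusted p = 0.0216) and a rho of 0.85 (p = 0.00266, adjusted p = 0.104). Their r remained 0.85 without the 2 mice farthest from the median in Thbs2, Pax7Cre mice 2 and 4, and was 0.98 within Pax7Cre and 0.74 within miR-501KO. Postn and Sparc had an r of 0.86 (permutation test, p = 0.00154, adjusted p = 0.0346) and a rho of 0.82 (p = 0.00564, adjusted p = 0.104). That r fell to 0.59 without Pax7Cre mice 2 and 3, and it was 0.89 within Pax7Cre and 0.78 within miR-501KO. Neither pair passed once the genotype means were removed (exact permutation within genotypes, adjusted p = 0.0948 for both), although r was then 0.95 and 0.87. Without Pax7Cre mouse 2 alone, 0 pairs passed, and r was 0.83 and 0.76. Pairs that passed were also 0 without Pax7Cre mouse 3, Pax7Cre mouse 5 or miR-501KO mouse 3, and 1 without miR-501KO mouse 2 or 4, although with any one of these 5 left out r stayed at 0.94 to 0.97 for Thbs2 and Sparc and at 0.83 to 0.87 for Postn and Sparc.

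Several values of r for Tnc were lower without Pax7Cre mouse 2, while that of Thbs4 and Tnc was 0.45 with and 0.48 without this mouse. Thbs2 and Tnc had an r of 0.91 (permutation test, adjusted p = 0.0795), which was 0.52 without this mouse, 0.91 without Pax7Cre mouse 4 and 0.36 without both. After removal of the genotype means it was 0.96, the highest of all pairs (exact permutation within genotypes, adjusted p = 0.0948), and it was 0.98 within Pax7Cre and 0.75 within miR-501KO. Thbs1 and Tnc had an r of 0.89 (permutation test, adjusted p = 0.0795), which was 0.54 without Pax7Cre mouse 2, 0.90 without Pax7Cre mouse 4 and 0.28 without both. Within miR-501KO it was 0.21. Without Pax7Cre mouse 2, r went from 0.82 to 0.30 for Tnc and Sparc and from 0.59 to -0.085 for Tnc and Postn, whose rho was 0.067 over all mice. Thbs1 and Sparcl1 went in opposite directions with an r of -0.73 (permutation test, adjusted p = 0.163), which was -0.037 without Pax7Cre mice 2 and 4.

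For Spon2, r over all mice contains the difference that selected it, and it is given after removal of the genotype means. It was then -0.58 with Thbs1 (exact permutation within genotypes, adjusted p = 0.266), 0.54 with Sparcl1 (adjusted p = 0.351), 0.31 with Thbs3 and -0.13 with Spon1, the other spondin. None of the 9 pairs with Spon2 passed. Within the groups, whose difference was not tested, r with Thbs1 was -0.81 within Pax7Cre and -0.036 within miR-501KO, and r with Tnc was -0.54 and 0.76. With Sparcl1 it was 0.45 and 0.82.

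Genes with a pattern most like Spon2 were sought by Pearson's r of log2 CPM over 10 mice after removal of the genotype means, among 13576 genes with a mean of at least 1 CPM. The 5 highest were Snx14 with 0.938, Il33 with 0.924, Wdr92 with 0.921, AI854703 with 0.920 and Zfp799 with 0.919. Of these, 4 had a log2 fold change below 0 between the genotypes, opposite to Spon2, for instance Snx14 with -0.15 and Il33, an alarmin of stromal cells, with -0.15. Among the members the likeness to Spon2 was highest in Sparcl1 (r = 0.54, rank 1333) and lowest in Thbs1 (r = -0.58, rank 12327). These values share 10 libraries and were picked from all these genes, and they are given without a test.

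The genes around the members were examined as a list of 54, made up of relatives, receptors, matrix ligands, processing enzymes and TGF-beta ligands. Of these, 47 passed the filter, with 25 above and 22 below 0, and 0 were higher and 0 lower at an unadjusted p under 0.05 (edgeR quasi-likelihood test), against the 0.382 and 0.666% of all genes given above. Their median log2 fold change was 0.011 and their range was from -0.42 to 0.29. Rspo1, Rspo4, Tnr, Ccn6, Spock1, Spock3 and Ibsp had too few counts to be tested.

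**Figure D4:**
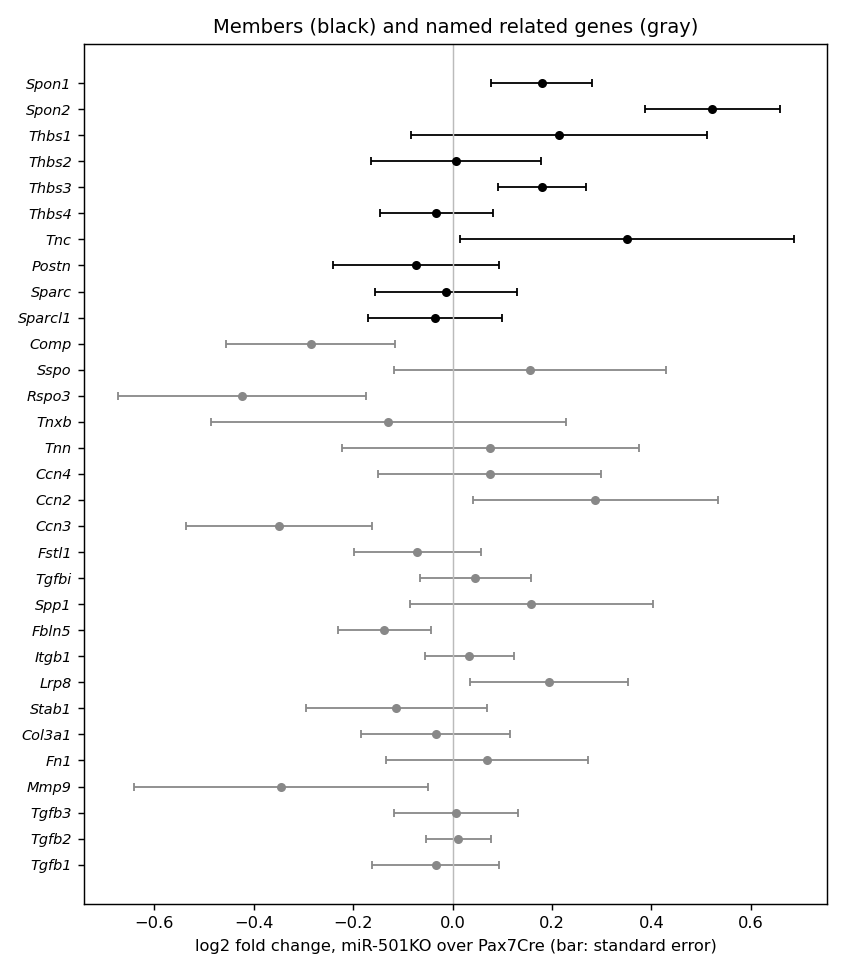
Log2 fold change between miR-501KO and Pax7Cre mice with its standard error, for the 10 members (black) and the named related genes (gray). Spon2 at 0.52 is the member farthest from 0, and the related genes lie between -0.42 and 0.29.

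Among further thrombospondins, spondins and R-spondins, 1 of 4 tested genes was above 0. Comp, the fifth thrombospondin and a cartilage and tendon matrix protein, was most abundant with a mean of 36.2 CPM and had a log2 fold change of -0.29 (SE 0.17). Rspo3, a secreted amplifier of Wnt signaling, had -0.42 (SE 0.25) at 2.90 CPM, and Sspo, the SCO-spondin gene, had 0.16 (SE 0.27) at 0.849 CPM. Tnxb and Tnn, the other tenascins tested, had log2 fold changes of -0.13 (SE 0.36) and 0.076 (SE 0.30). None of these genes passed the test.

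Of the CCN proteins, matricellular modulators of integrin and growth factor signals, 3 of 5 were above 0. Ccn2, the connective tissue growth factor gene, had a log2 fold change of 0.29 (SE 0.25), Ccn4 one of 0.074 (SE 0.23) and Ccn3 one of -0.35 (SE 0.19). In the SPARC family and its periostin relative, Fstl1 was the most abundant with 877 CPM and had -0.071 (SE 0.13), while Tgfbi, which like Postn carries fasciclin domains, had 0.046 (SE 0.11). Among other matricellular genes, Spp1, the osteopontin gene, had 0.16 (SE 0.24) and Fbln5, an elastic fiber protein, had -0.14 (SE 0.094).

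Receptors and binding partners were the largest class, with 11 of 16 genes above 0 and a median of 0.035. Itgb1, the shared beta chain of many matrix integrins, had a log2 fold change of 0.033 (SE 0.090), Lrp8, a lipoprotein receptor that binds F-spondin, had 0.19 (SE 0.16), and Stab1, a scavenger receptor that takes up SPARC, had -0.11 (SE 0.18). Of the matrix ligands and processing enzymes, Col3a1 had -0.034 (SE 0.15) at 7821 CPM, Fn1, the fibronectin gene, had 0.069 (SE 0.20) and Mmp9, a gelatinase, had -0.34 (SE 0.30). Tgfb1, whose latent product Thbs1 can activate, Tgfb2 and Tgfb3 had log2 fold changes of -0.034 (SE 0.13), 0.011 (SE 0.065) and 0.0067 (SE 0.13).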

How the data were processed

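RNA from regenerating TA muscle of 10 mice (stranded mRNA libraries, 100 bp single-end reads) was aligned and counted by the authors with STAR and featureCounts on GRCm38.p5, as the submitters' processing notes list, and deposited as raw gene counts per mouse. The strand and multi-mapping settings were not given in the sources used here. Gene names and positions were taken from GENCODE M21, in which 25664 of 25700 identifiers matched. 5846 genes had no read in any mouse.

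The members and all gene lists were chosen with earlier results of these data known. Genes were filtered with filterByExpr (minimum count 10, minimum total 15), scaled by TMM and tested for genotype with edgeR 4.0.16 (glmQLFit, glmQLFTest, Benjamini-Hochberg adjustment, threshold 0.05) in R 4.3.3, with a biological coefficient of variation of 0.149. CPM were computed with the same factors and log2 CPM with a prior count of 0.5. DESeq2 1.42.0, other filters, a replicate block and leaving out each mouse served as alternatives. The code was checked on simulated data. Depth was 18609222 to 24753258 counts per mouse, and counting errors quoted for Spon2 cover counting only. The genes named are the members, the gene of highest level and those with the largest and smallest log2 fold change in each class of related genes, related genes at an unadjusted p under 0.05, and the 5 genes most like Spon2. The p-values take as their units these mice, which were labelled as separate animals.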

Additional observations from a re-analysis of the deposited data

Results flagged for a closer look

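In groups of 5 mice, a mouse was listed when its gap to the nearest of the others exceeded 0.71 of the range of its group (Dixon's criterion). This held in 3 of 38 groups searched, against 1.9 that chance would give at 1 in 20. Tnc was 1087 CPM in miR-501KO mouse 3, above the 714 to 803 CPM of the other miR-501KO mice. The summed smooth muscle and pericyte markers were 1408 CPM in miR-501KO mouse 1, against 1215 to 1265 CPM in the others. The summed regenerating fiber markers (Myh3, Myh8, Myog, Mymk and Mymx) were 2408 CPM in miR-501KO mouse 4, against 2977 to 3202 CPM in the other miR-501KO mice. The Pax7Cre mice had 2211 to 3375 CPM, with Pax7Cre mouse 2 the lowest.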

How the results depend on the processing

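With the likelihood ratio test of edgeR and trended dispersion, 19 genes passed adjustment (11 higher, 8 lower in miR-501KO) in place of 0, and Spon2 was not among them (adjusted p = 0.264). No other alternative gave an adjusted call. Of genes at an unadjusted p under 0.05, 55 higher and 96 lower became 153 and 159 without a filter and 123 and 131 by the likelihood ratio test, and 36 were higher with at least 10 counts in every mouse. Leaving out 1 mouse gave 39 to 267 higher and 59 to 242 lower: 267 and 186 without Pax7Cre mouse 2, 228 and 242 without Pax7Cre mouse 4, and 59 lower without miR-501KO mouse 1. Passing pairs of members (2) became 0 by Spearman's rho, 0 after centering on genotype, and 0 to 3 with 1 mouse left out. They were 0 without Pax7Cre mouse 2, 3 or 5 or miR-501KO mouse 3, and 1 without miR-501KO mouse 2 or 4, where r stayed at 0.94 to 0.97 for Thbs2 and Sparc and 0.83 to 0.87 for Postn and Sparc except without Pax7Cre mouse 2 (0.83 and 0.76). Neighbors that differed in level were 6 to 8.

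The log2 fold change of Spon2 was 0.45 to 0.60 over all settings, with a p rank of 1 to 36. In the 160 alternative values of the members, the change stayed under the spread between mice, but the sign changed in 5 for Sparc, 3 for Thbs2, 2 each for Sparcl1 and Thbs4, and 1 for Postn. Samples of equal number correlated at 0.32, -0.15, 0.15, -0.28 and 0.19, and not every mouse correlated best with its own number. These values did not show a pairing of the mice by number, and they cannot exclude one. With a replicate block, 87 genes were higher, 102 were lower and 0 passed adjustment. The cause of these shifts was not tested. Leaving out mice from the coefficients of variation was chosen after seeing the data. Spon2 had the fewest counts of the members, as few as 155 in a mouse, and so the largest counting error, up to 8.03%.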
